A study of Mus musculus with 16 samples.

Results

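The mast cell genes described here are Cpa3, Cma1, Mcpt4, Tpsb2, Tpsab1, Hdc, Fcer1a, Ms4a2, Kit and Gata2. They were read on every probe set that the array's platform annotation assigns to 1 of these symbols, which gave 15 of the 45101 probe sets of the array for the 10 genes. Of the 10 genes, 5 have 2 probe sets and 5 have 1. The samples were preparations of peritoneal B1a cells and of splenic B cells, so the genes report on transcripts that B cells are not known for. The question here was how high these transcripts stood on each array, and whether peritoneal and splenic preparations differed.

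Mast cells are tissue-resident cells of the myeloid lineage that are common in the peritoneal cavity of mice. They carry the receptor tyrosine kinase Kit and the high-affinity IgE receptor on their surface, and store histamine and proteases with proteoglycans in their granules. Binding of antigen to receptor-bound IgE releases the granules. Gata2 is a transcription factor that mast cells need for their development and for the transcription of several granule genes.

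Arrays were available for 4 groups of 4 mouse samples each, all from animals 5 months old. Sle2c1_B1a were peritoneal B1a cells and Sle2c1_Bs splenic B cells of B6.Sle2c1 mice, a C57BL/6 congenic strain that carries the Sle2c1 segment of a lupus-prone strain, in which the cell cycle inhibitor gene Cdkn2c lies. B6_B1a and B6_Bs were the same preparations from C57BL/6 mice. For B1a cells, peritoneal cells were cultured for 2 h in buffer with 10% serum so that macrophages adhered and could be left behind. Cells carrying Thy1.2 or CD3ε were then removed with antibodies and magnetic beads, and a CD5 antibody selected the B1a cells. These preparations are described as 80% B220int CD5+ cells, and the CD43-negative splenic ones as over 90% B220hi. No step of the protocol is directed at mast cells. Neither the sex of the mice nor a processing day is given.

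The deposited value is a score that behaves like a log signal, with a log base that the sources used here do not give. Differences are therefore in units of this score and are not turned into folds. Array medians lay between 0.68 and 1.12 units. On each array 22.8% to 35.6% of the probe sets held 1 common lowest value, which ranged from -7.72 to -4.99 over the arrays. Values below 0.495 units, the median over the arrays of their 40th percentiles, were raised to that value, called the floor below. A value at the floor is a bound and has no order among such values. Over the 35032 probe sets tested, with values raised to the floor, arrays correlated at 0.784 to 0.968 within groups and at 0.701 to 0.976 between groups. Earlier work on these arrays named 4 that stand apart, Sle2c1_B1a 4, B6_Bs 3, Sle2c1_Bs 3 and B6_Bs 1, and a call that changes without them is given beside its values.

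Against splenic B cells, B1a preparations held higher signal of 8 of the 10 mast cell genes in B6 mice and of 5 of the 10 in Sle2c1 mice, and lower signal of none (limma, Benjamini-Hochberg adjusted p under 0.05 over 35032 probe sets, 4 arrays per group). Cpa3, Cma1, Tpsab1, Hdc and Gata2 were higher in both strains, and Mcpt4, Tpsb2 and Fcer1a passed in B6 alone. Kit and Ms4a2 passed in neither strain. Each gene was counted by its probe set of highest mean. Of all 15083 named genes, 12.8% were higher in Sle2c1 B1a and 11.0% in B6 B1a by the same rule. Of the 35032 probe sets tested, 3875 were higher and 4801 lower in Sle2c1_B1a, and 3226 were higher and 3758 lower in B6_B1a. Counts of higher and lower genes in the other lists below are to be read beside these. The median difference of the 10 genes was 0.628 units in Sle2c1 and 1.19 units in B6, beside -0.0087 and -0.0075 units over all named genes. Groups did not overlap for 4 of the 10 genes in Sle2c1 and for 8 of the 10 in B6, where B1a arrays were all above Bs arrays for 12.4% and 13.6% of named genes. For 6 of the 10 genes the filter on dim probe sets was passed only with the help of B1a arrays, and Mcpt4 and Tpsab1 passed it on B1a arrays alone, so these counts describe the genes and support nothing further. No interaction passed for any of the 10 (limma; lowest adjusted p = 0.62, and 2 at an unadjusted p under 0.05). None passed among the 14 member probe sets tested either (limma; lowest adjusted p = 0.264, and 4 at an unadjusted p under 0.05). The second probe sets of Gata2 and Hdc were among those 4, at -1.06 and -0.53 units. A pass in B6 alone thus does not show that the strains differ. Among all named genes, 0.484% had an interaction past the threshold. In these bulk samples, fewer cells of a type and less RNA per cell cannot be told apart.

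**Figure D1:**
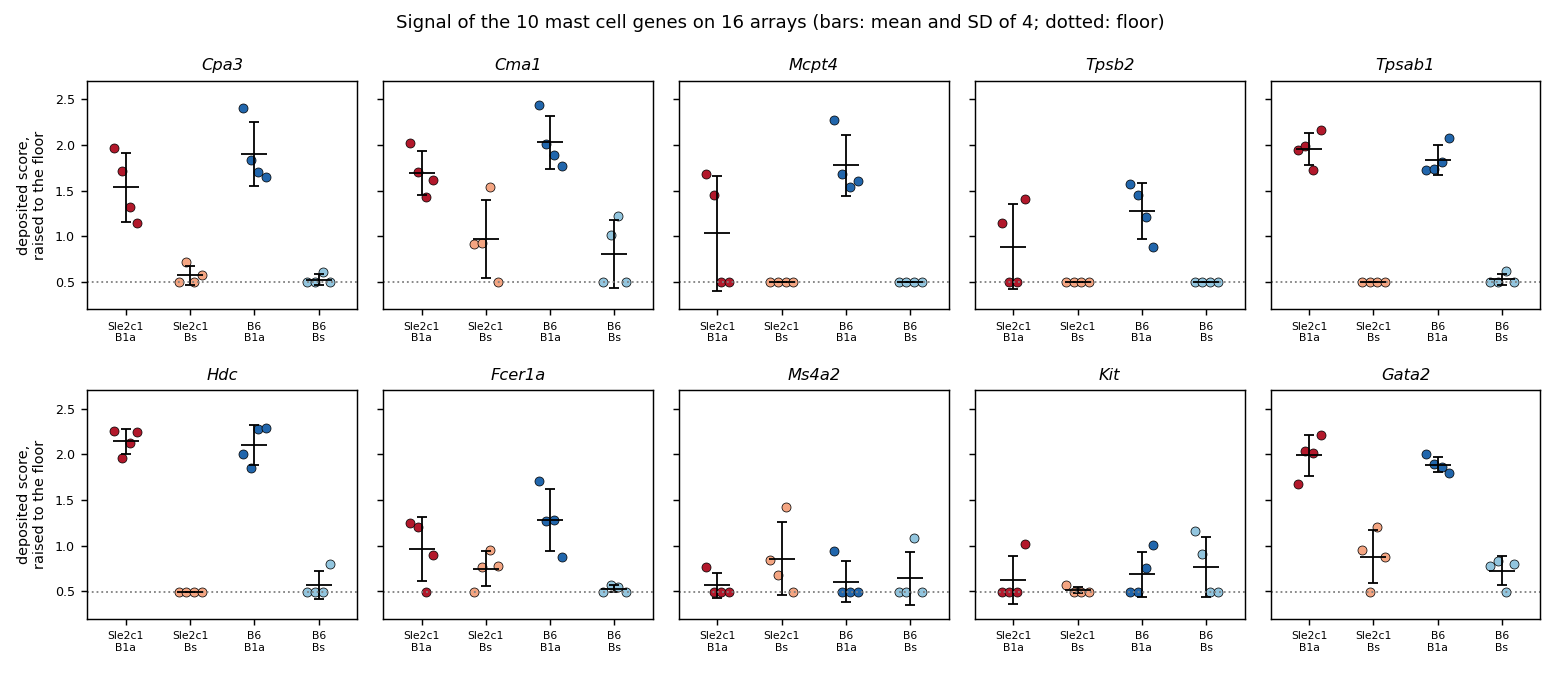
Score of each mast cell gene (vertical axis, units of the deposited score raised to the floor of 0.495, drawn as a dotted line) on each of the 16 arrays, for the probe set of highest mean. Points are arrays, bars are the mean and SD of 4 arrays, and the groups stand in the order Sle2c1_B1a, Sle2c1_Bs, B6_B1a, B6_Bs. Hdc, Tpsab1 and Gata2 lie above 1.6 units on every B1a array, whereas the B1a and Bs arrays overlap for Kit and Ms4a2.

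Among the granule proteases, Cpa3, the mast cell carboxypeptidase, read 1.97, 1.71, 1.32 and 1.14 units on the Sle2c1_B1a arrays. On the Sle2c1_Bs arrays it read 0.72 and 0.57 units on replicates 2 and 4 and lay at the floor on the others. The groups did not overlap, and the difference was 0.96 ± 0.18 units (SE; limma adjusted p = 0.00109; exact permutation p = 0.0286, two-sided, the smallest that 4 against 4 arrays allow). In B6 mice, Cpa3 read 2.41, 1.83, 1.70 and 1.65 units on the B1a arrays, against 0.61 units on B6_Bs 3 and the floor on the other splenic arrays. That difference was 1.37 ± 0.18 units (SE; limma adjusted p = 6.78e-05).

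Cma1 encodes chymase 1 (also called mouse mast cell protease 5), a serine protease of connective tissue mast cells. It read 2.02, 1.70, 1.43 and 1.62 units on the Sle2c1_B1a arrays, against 0.92, 0.93 and 1.54 units and the floor on the Sle2c1_Bs arrays. Sle2c1_Bs 3 lay above Sle2c1_B1a 3, so the groups overlapped. The difference was 0.72 ± 0.23 units (SE; limma adjusted p = 0.0315), and the exact permutation p was 0.0571. This call was lost without Sle2c1_B1a 1 or 2 or without Sle2c1_Bs 1, 2 or 4, with adjusted p between 0.0611 and 0.0897. On the B6_B1a arrays Cma1 read 2.44, 2.01, 1.89 and 1.77 units, against 1.01 and 1.22 units on B6_Bs 2 and 3 and the floor on the remaining splenic arrays. Those groups did not overlap, and the difference was 1.22 ± 0.23 units (SE; limma adjusted p = 0.00157).

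Mcpt4 encodes a chymase that, like Cma1, is typical of connective tissue mast cells. On the Sle2c1_B1a arrays it read 1.68 and 1.45 units on replicates 1 and 2 and lay at the floor on replicates 3 and 4. All 4 Sle2c1_Bs arrays lay at the floor. The difference of 0.54 ± 0.24 units did not pass the test (SE; limma adjusted p = 0.112). It is no bound, since arrays of both groups lay at the floor. It passed without Sle2c1_B1a 3 or without Sle2c1_B1a 4 (adjusted p = 0.0395 and 0.034). On the B6_B1a arrays Mcpt4 read 2.27, 1.68, 1.54 and 1.61 units, against the floor on all 4 B6_Bs arrays. The difference in B6 was at least 1.28 ± 0.24 units (SE; limma adjusted p = 0.00145). Mcpt4 passed the filter on dim probe sets on B1a arrays alone (6 B1a and 0 Bs arrays). Its tests against Bs thus describe its values and support nothing further.

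Tpsb2 and Tpsab1 encode the tryptases called mouse mast cell protease 6 and 7, which lie next to each other on chromosome 17. RefSeq lists Tpsab1 as a transcribed pseudogene in the C57BL/6J assembly. The genes are close paralogs, so signal on a probe set of 1 may come from the other, which was not tested. By probe set 1426175_a_at, Tpsab1 read 1.94, 1.99, 1.73 and 2.16 units on the Sle2c1_B1a arrays, against the floor on all 4 Sle2c1_Bs arrays. The difference was at least 1.46 ± 0.09 units (SE; limma adjusted p = 3.29e-08). On the B6_B1a arrays Tpsab1 read 1.72, 1.74, 1.81 and 2.08 units, against 0.62 units on B6_Bs 3 and the floor elsewhere in B6_Bs. That difference was 1.31 ± 0.09 units (SE; limma adjusted p = 1.19e-07). Tpsab1 passed the filter on dim probe sets on B1a arrays alone (8 B1a and 0 Bs arrays). Its calls thus describe its values and support nothing further. Without a floor the differences were 5.6 ± 1.91 units in Sle2c1 and 4.39 ± 1.91 units in B6 (SE; limma adjusted p = 0.0627 and 0.149).

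Tpsb2, by probe set 1422180_a_at, read 1.14 and 1.41 units on Sle2c1_B1a 1 and 4 and lay at the floor on the other 2, as on all Sle2c1_Bs arrays. The difference of 0.39 ± 0.19 units, with arrays of both groups at the floor, did not pass (SE; limma adjusted p = 0.14). On the B6_B1a arrays it read 1.57, 1.45, 1.21 and 0.88 units, against the floor on every B6_Bs array. The difference was at least 0.78 ± 0.19 units (SE; limma adjusted p = 0.00863). A floor of 1 unit ended this call (adjusted p = 0.0673). The other Tpsb2 probe set, 1451802_at, did not pass in either strain (0.25 units in Sle2c1, adjusted p = 0.25, and 0.17 units in B6, adjusted p = 0.464).

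Cpa3, Cma1 and Mcpt4 are the granule protease genes with a promoter in the RefSeq set, and the 250 bases before their annotated starts are shown because these genes, like Gata2, passed the test in B6 (RefSeq, build GRCm38.p6, each on the minus strand and written 5′ to 3′ along the gene). Capitals mark the letters GATA on either strand (GATA or TATC), the core of the sequence that Gata2 and its relatives bind. The windows are chr3:20242182-20242431 for Cpa3, chr14:55944676-55944925 for Cma1 and chr14:56062311-56062560 for Mcpt4.
Cpa3: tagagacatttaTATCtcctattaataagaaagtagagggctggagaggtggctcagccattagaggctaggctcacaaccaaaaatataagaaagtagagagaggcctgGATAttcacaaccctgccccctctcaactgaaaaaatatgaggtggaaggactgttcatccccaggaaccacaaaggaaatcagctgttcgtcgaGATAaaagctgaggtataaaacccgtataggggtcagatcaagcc
Cma1: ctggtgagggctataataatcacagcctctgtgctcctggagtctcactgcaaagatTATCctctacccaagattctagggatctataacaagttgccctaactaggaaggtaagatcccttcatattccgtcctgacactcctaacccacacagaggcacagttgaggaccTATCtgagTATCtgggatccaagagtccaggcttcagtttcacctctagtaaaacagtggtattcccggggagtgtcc
Mcpt4: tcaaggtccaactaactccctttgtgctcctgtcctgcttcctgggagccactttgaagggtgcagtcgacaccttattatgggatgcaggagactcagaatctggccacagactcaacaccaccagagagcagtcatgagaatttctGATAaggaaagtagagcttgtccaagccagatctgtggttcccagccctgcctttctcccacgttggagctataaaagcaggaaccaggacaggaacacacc
The letters begin 238, 140 and 45 bases before the start in Cpa3, 193, 78 and 70 in Cma1, and 102 in Mcpt4. The longer form AGATAA, which contains GATA, stands at 46 bases in Cpa3, and TGATAA, which contains it too, at 103 bases in Mcpt4. The letters TATAAA stand 31 and 242 bases before the start in Cpa3 and 32 bases before it in Mcpt4. Of the 8 member genes with a promoter in the set, 6 hold GATA, a sequence of 4 letters that 54.1% of 27025 promoters of the same length hold. The members are counted by gene and the share by promoter, so the 2 are not alike. Kit and Gata2 have more than 1 promoter each, and none of these holds any of the motifs searched. AGATAA is in 3 of the 8, Cpa3, Fcer1a and Ms4a2, beside 10.3% of all promoters, TGATAA in Mcpt4 beside 8.16%, and TATAAA in 3 of the 8 beside 13.0%. CATGTG, an E-box of the kind that the mast cell factor Mitf binds, is in 1 of the 8, Fcer1a, beside 12.2%, and CACGTG in 0 of the 8 beside 6.05%. All motifs were searched on both strands, and a match is a description of the letters and not a binding site.

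Hdc encodes histidine decarboxylase, the enzyme that makes histamine. By probe set 1454713_s_at it read 2.26, 1.96, 2.12 and 2.24 units on the Sle2c1_B1a arrays, against the floor on all 4 Sle2c1_Bs arrays. The difference was at least 1.65 ± 0.11 units (SE; limma adjusted p = 4.17e-08). On the B6_B1a arrays Hdc read 2.00, 1.85, 2.28 and 2.29 units, against 0.80 units on B6_Bs 4 and the floor on the other splenic arrays. That difference was 1.53 ± 0.11 units (SE; limma adjusted p = 1.04e-07). The whole range over the 8 B1a arrays was 0.44 units.

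The IgE receptor consists of an alpha chain that binds IgE, a beta chain that amplifies the signal and a gamma chain shared with other Fc receptors. Fcer1a, the alpha chain gene, read 1.25, 1.20 and 0.90 units on Sle2c1_B1a 1, 2 and 4 and lay at the floor on replicate 3. The Sle2c1_Bs arrays read the floor, 0.77, 0.95 and 0.78 units, so that the groups overlapped. The difference was 0.21 ± 0.18 units (SE; limma adjusted p = 0.403). On the B6_B1a arrays Fcer1a read 1.71, 1.27, 1.28 and 0.87 units, against 0.57 and 0.55 units on B6_Bs 2 and 3 and the floor on the others. The B6 groups did not overlap and differed by 0.76 ± 0.18 units (SE; limma adjusted p = 0.00774). Without the 4 arrays that stand apart, the adjusted p in B6 was 0.0528.

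Ms4a2, the beta chain gene, lay at the floor on 6 of the 8 B1a arrays by its brighter probe set. It read 0.77 units on Sle2c1_B1a 1, and 0.84, 0.68 and 1.42 units on Sle2c1_Bs 1 to 3 with replicate 4 at the floor. In B6 it read 0.94 units on B6_B1a 1, against 1.08 units on B6_Bs 3, and lay at the floor on the other arrays. The differences were -0.30 ± 0.19 units in Sle2c1 (SE; limma adjusted p = 0.269) and -0.04 ± 0.19 units in B6 (SE; limma adjusted p = 0.928). Its second probe set, 1443264_at, was above the floor on 1 array of each group. Fcer1g, the gamma chain gene, is also used by other cells and averaged 2.28 ± 0.10 units in Sle2c1_B1a and 2.16 ± 0.05 units in Sle2c1_Bs (SD, n = 4; limma adjusted p = 0.298). In B6 mice Fcer1g averaged 2.32 ± 0.19 units in B1a and 2.38 ± 0.04 units in Bs (SD, n = 4; limma adjusted p = 0.666). The Ms4a2 promoter, chr19:11623720-11623969 on the minus strand of the same build, is printed because of the 8 it holds the most GATA cores, in a gene whose signal did not pass in either strain.
Ms4a2: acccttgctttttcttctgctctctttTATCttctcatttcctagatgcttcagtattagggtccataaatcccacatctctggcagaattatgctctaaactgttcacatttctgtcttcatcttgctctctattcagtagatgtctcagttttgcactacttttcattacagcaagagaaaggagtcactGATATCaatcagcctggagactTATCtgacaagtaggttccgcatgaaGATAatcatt
The letters, in capitals as above, begin 223, 58, 56, 36 and 10 bases before the start, and the matches at 58 and 56 overlap. AGATAA stands at 224, 37 and 11 bases.

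Kit, the receptor for stem cell factor on which mast cells depend for survival, was at the floor on most arrays. By probe set 1452514_a_at it read 1.02 units on Sle2c1_B1a 4 and 0.57 units on Sle2c1_Bs 1, with the other arrays of those groups at the floor. In B6 it read 0.75 and 1.01 units on B6_B1a 3 and 4, against 1.16 and 0.91 units on B6_Bs 1 and 2, and the others lay at the floor. The differences were 0.11 ± 0.16 units in Sle2c1 (SE; limma adjusted p = 0.653) and -0.08 ± 0.16 units in B6 (SE; limma adjusted p = 0.789). The second Kit probe set, 1415900_a_at, lay at the floor on all 8 B1a arrays, was above it on B6_Bs 3 with 0.69 units, and was the 1 member probe set too dim to be tested. Kit and Ms4a2, both markers of the mast cell lineage, were the 2 of the 10 genes that passed in neither strain.

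Gata2 read 1.68, 2.04, 2.02 and 2.21 units on the Sle2c1_B1a arrays by probe set 1428816_a_at. The Sle2c1_Bs arrays read 0.95, 1.20 and 0.87 units on replicates 1, 3 and 4, with replicate 2 at the floor. The groups did not overlap and differed by 1.11 ± 0.14 units (SE; limma adjusted p = 4.12e-05). In B6 the B1a arrays read 2.00, 1.89, 1.86 and 1.80 units, against 0.78, 0.83 and 0.80 units on B6_Bs 1, 2 and 4 and the floor on B6_Bs 3. That difference was 1.16 ± 0.14 units (SE; limma adjusted p = 3.39e-05).

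**Figure D2:**
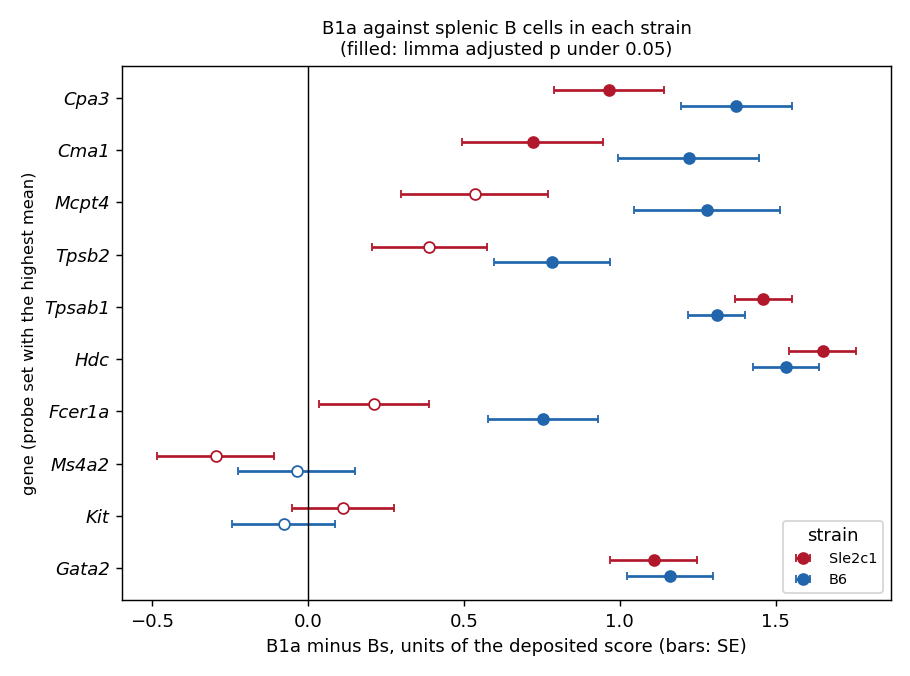
Difference of B1a minus Bs (horizontal axis, units of the deposited score) for the 10 mast cell genes in Sle2c1 and in B6 mice, with bars of 1 SE from the limma fit over 16 arrays. Filled points passed an adjusted p of 0.05, and open points did not. Each gene is shown by its probe set of highest mean. By these, Hdc, Tpsab1 and Gata2 have differences above 1.1 units in both strains, and Kit and Ms4a2 have open points in both. By their second probe sets, Hdc and Gata2 had differences under 1.1 units in both strains.

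The 2 probe sets of Gata2 and of Hdc did not give the same picture. By its second probe set, 1450333_a_at, Gata2 read 1.75 and 1.62 units on Sle2c1_B1a 1 and 2 and lay at the floor on replicates 3 and 4, against 0.91, 1.51, 1.38 and 0.97 units on the Sle2c1_Bs arrays. The difference was -0.10 ± 0.29 units (SE; limma adjusted p = 0.826). In B6 the same probe set read 2.36, 1.74, 1.55 and 1.44 units on the B1a arrays, against 0.88, 0.93, 0.58 and 0.87 units on the Bs arrays. There it was higher by 0.96 ± 0.29 units (SE; limma adjusted p = 0.0304). This call was lost without B6_B1a 1 or 2 or without B6_Bs 2, 3 or 4, with adjusted p between 0.0566 and 0.0918, and without the 4 arrays that stand apart (adjusted p = 0.115). Hdc by its second probe set, 1451796_s_at, was higher in B1a in both strains. The difference was 0.34 ± 0.11 units in Sle2c1, where arrays of both groups lay at the floor (SE; limma adjusted p = 0.0347). In B6 it was at least 0.88 ± 0.11 units (SE; limma adjusted p = 5.14e-05). This probe set passed the filter on dim probe sets on B1a arrays alone (7 B1a and 0 Bs arrays), so these calls describe its values and support nothing further. In Sle2c1 the groups met at the floor on replicate 4, and the exact permutation p was 0.143. That call was lost without Sle2c1_B1a 1 or 2 or without any 1 Sle2c1_Bs array (adjusted p between 0.0611 and 0.102) and under 7 other alternatives. Its adjusted p was 0.102 with a fit on those 2 groups alone, 0.0524 with the replicate block over all arrays, 0.0579 with median centring and 0.113 with a trended, robust fit. It was 0.137 when groups wholly at the floor did not count toward the spread, 0.747 with a floor at 1 unit (a difference of 0.03 units) and 0.0537 with no floor.

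**Figure D3:**
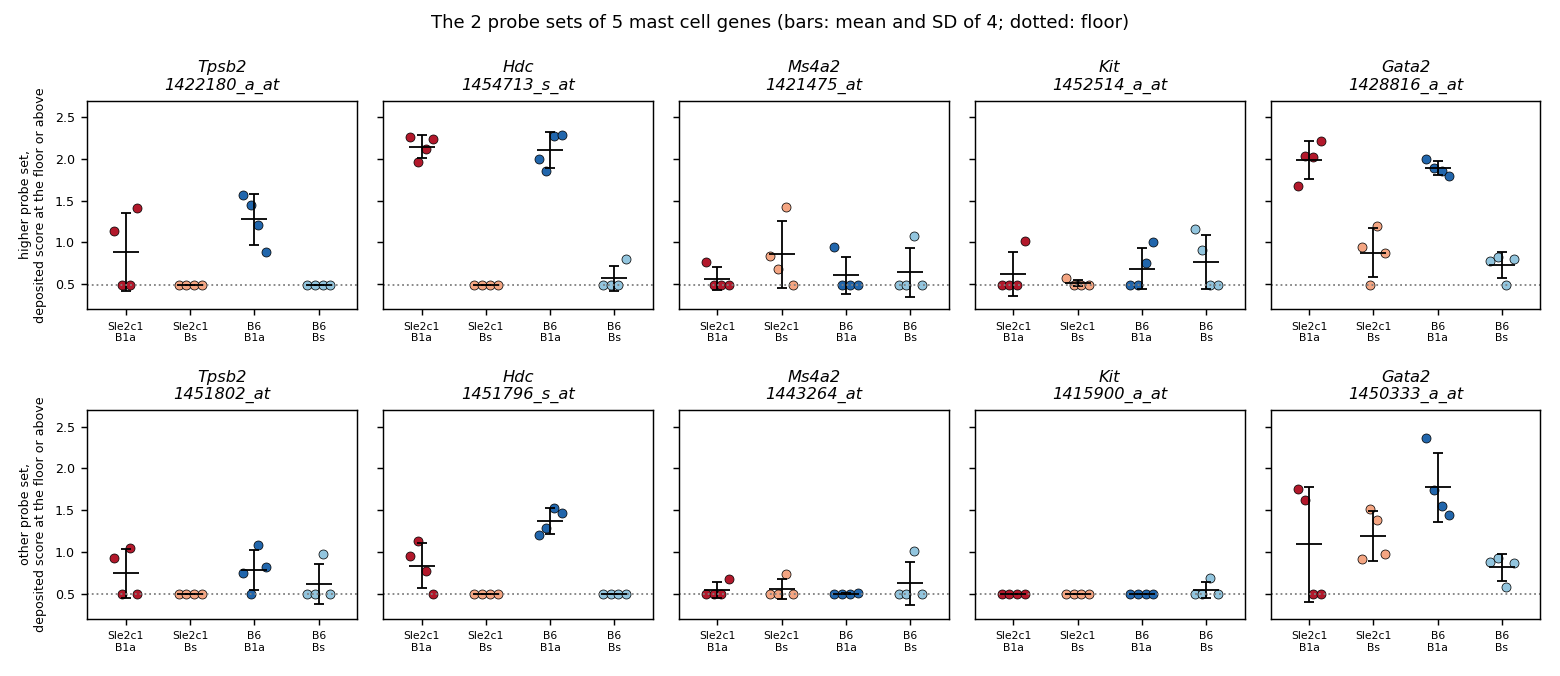
Scores (units of the deposited score raised to the floor of 0.495, dotted line) on the 16 arrays for the 5 genes with 2 probe sets, 1 panel per probe set, with points for arrays and bars for the mean and SD of 4 arrays. The brighter Gata2 probe set separates B1a from Bs in both strains and the other in B6 alone, and the dimmer Kit probe set lies at the floor on all 8 B1a arrays.

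Between the strains, the B1a preparations did not differ past the threshold in any of the 10 genes by the probe set of highest mean (0 of 10 by limma, 1 at an unadjusted p under 0.05, and 0 at an exact permutation p under 0.05). Of all named genes, 3.54% passed in this comparison. The median difference was -0.191 units, beside 0.0038 units over all named genes, and 7 of the 10 differences were below 0. With arrays centred on their medians, the differences of Hdc, Gata2 and Tpsab1 turned to -0.09, -0.02 and -0.01 units. Mcpt4 averaged 1.03 ± 0.62 units in Sle2c1_B1a and 1.78 ± 0.33 units in B6_B1a (SD, n = 4). Its difference was -0.74 ± 0.24 units (SE; limma adjusted p = 0.106), and without Sle2c1_B1a 1 it was -0.96 units with an adjusted p of 0.0187. Cpa3 averaged 1.54 ± 0.38 units in Sle2c1_B1a and 1.90 ± 0.35 units in B6_B1a (SD, n = 4; limma adjusted p = 0.311). Hdc averaged 2.15 ± 0.14 units in Sle2c1_B1a and 2.11 ± 0.22 units in B6_B1a (SD, n = 4; limma adjusted p = 0.881). By its second probe set, 1451796_s_at, Hdc read 0.95, 1.13 and 0.77 units and the floor on the Sle2c1_B1a arrays, against 1.20, 1.29, 1.53 and 1.46 units on the B6_B1a arrays. This was the 1 member probe set of 14 past the threshold, lower in Sle2c1 by -0.53 ± 0.11 units (SE; limma adjusted p = 0.0138; exact permutation p = 0.0286, the smallest possible), where 1.64% of all probe sets were lower. Its adjusted p was 0.132 when groups lying wholly at the floor did not count toward the spread, 0.0653 with a trended, robust fit, 0.166 with a fit on those 2 groups alone, 0.0631 with the replicate block per cell type and 0.596 with no floor. In splenic B cells 0 of the 10 genes differed between the strains by limma, with 0 at an unadjusted p under 0.05, beside 0.152% of all named genes.

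Among the 8 B1a arrays, B6_B1a 1 had the highest signal of 6 of the 10 genes, namely Cpa3, Cma1, Mcpt4, Tpsb2, Fcer1a and Ms4a2. That array was the highest of the 8 for 13.7% of 14999 named genes. Sle2c1_B1a 4 was highest for Tpsab1, Gata2 and Kit, as for 24.0% of named genes, and B6_B1a 4 for Hdc, as for 8.73%. Tpsab1 had its lowest B1a value, 1.72 units, on B6_B1a 1. Ranges over the 8 arrays were 1.27 units for Cpa3 and 1.01 for Cma1, and at least 1.78 for Mcpt4, 1.08 for Tpsb2 and 1.22 for Fcer1a, whose lowest arrays lay at the floor. The ranges of Hdc, Tpsab1 and Gata2 were 0.44, 0.44 and 0.53 units. All of these are for the probe sets of highest mean, and the second ones of Gata2 and Hdc read otherwise. By 1450333_a_at, Gata2 was highest on B6_B1a 1, at 2.36 units, with a range of at least 1.865 units. By 1451796_s_at, Hdc was highest on B6_B1a 3, at 1.53 units, with a range of at least 1.035 units.

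**Figure D4:**
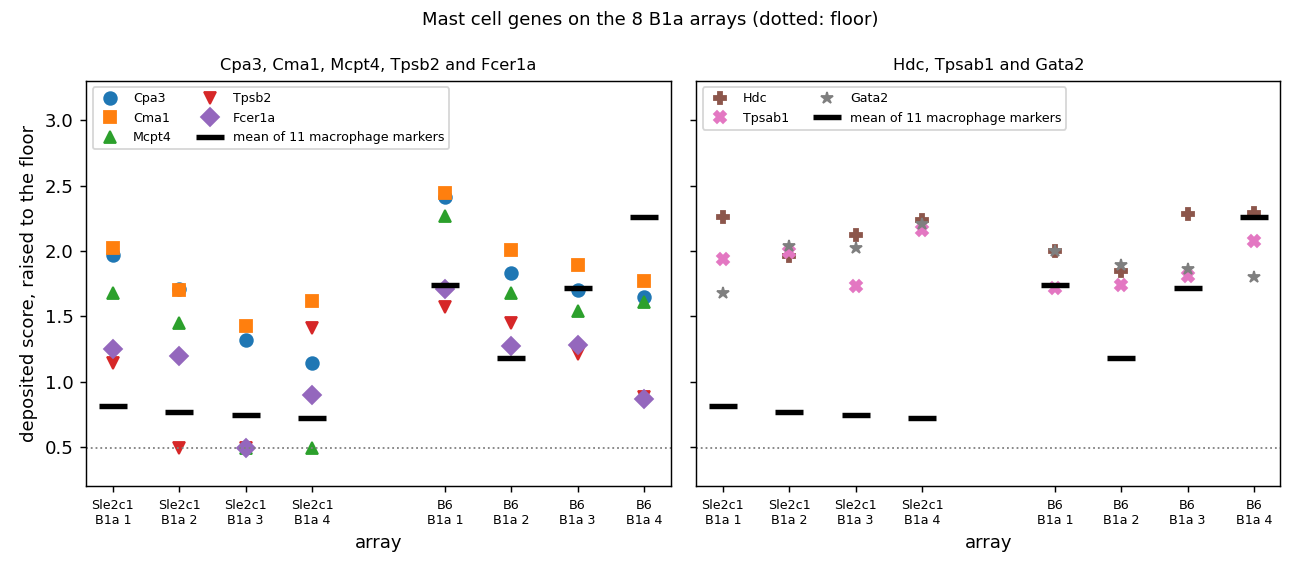
Scores of mast cell genes (units of the deposited score raised to the floor of 0.495) on the 8 B1a arrays, with the mean of 11 macrophage genes as black dashes. The 2 panels were split after the values were seen. The left panel holds genes highest on B6_B1a 1 and the right panel genes that were not, so the contrast between panels is no result. Each gene is drawn by its probe set of highest mean. Cpa3, Cma1 and Mcpt4 peak on B6_B1a 1, and the macrophage mean peaks on B6_B1a 4.

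Markers of other cells also varied with these groups. The mean of 11 macrophage genes was 0.721 to 0.811 units on the Sle2c1_B1a arrays and 0.826 to 0.998 units on the Sle2c1_Bs arrays, and 1.18 to 2.26 units on the B6_B1a arrays and 1.11 to 1.17 units on the B6_Bs arrays. Summed, these genes came to between 7.94 and 8.92 units in Sle2c1_B1a and between 9.09 and 11.0 units in Sle2c1_Bs, and to between 13.0 and 24.8 units in B6_B1a and between 12.3 and 12.9 units in B6_Bs. Of the 11, 1 was higher and 3 were lower in Sle2c1_B1a than in Sle2c1_Bs, and 7 were higher and 0 lower in B6_B1a than in B6_Bs. Between the strains, 7 were lower and 0 higher in Sle2c1_B1a than in B6_B1a. In that comparison 1.64% of all probe sets were lower, and 3.54% of all named genes passed in either direction. On the Sle2c1_B1a arrays, 6 of the 11 (Csf1r, Timd4, C1qb, C1qc, Apoe and Marco) were at the floor on every array and 5 were above it on at least 1. Of these 5, Adgre1 and Cd68 were above the floor on all 4 arrays, Adgre1 at 1.97 ± 0.15 units in Sle2c1_B1a and 1.80 ± 0.13 units in Sle2c1_Bs (SD, n = 4; limma adjusted p = 0.345). Cd68 averaged 1.33 ± 0.10 units in Sle2c1_B1a and 0.50 ± 0.01 units in Sle2c1_Bs (SD, n = 4; limma adjusted p = 0.000241). The summed level of the 10 mast cell genes was 11.1 to 15.2 units in Sle2c1_B1a and 5.68 to 8.08 units in Sle2c1_Bs, and 14.5 to 17.6 units in B6_B1a and 5.56 to 6.55 units in B6_Bs. The part of the macrophage, eosinophil and T cell genes in the mast cell gene differences was not tested. Of 6 eosinophil genes tested, 1 was higher and 0 lower in Sle2c1_B1a, and 3 were higher and 1 lower in B6_B1a, each against Bs. Between the strains, 1 was higher and 2 were lower in Sle2c1_B1a than in B6_B1a. Summed over the 6 on the array, eosinophil genes came to 6.27 to 6.95 units in Sle2c1_B1a and 5.25 to 6.12 units in Sle2c1_Bs, and to 5.79 to 7.79 units in B6_B1a and 5.24 to 7.08 units in B6_Bs. Epx, the eosinophil peroxidase gene, averaged 1.33 ± 0.18 units in B6_B1a and was at the floor on every B6_Bs array (SD, n = 4; limma adjusted p = 0.000387). Of 6 T cell genes tested, 0 were higher and 1 lower in Sle2c1_B1a, and 2 were higher and 1 lower in B6_B1a, each against Bs. Between the strains, 0 were higher and 1 was lower in Sle2c1_B1a than in B6_B1a. Summed over the 7 on the array, T cell genes came to 3.67 to 7.04 units in Sle2c1_B1a and 4.54 to 5.25 units in Sle2c1_Bs, and to 6.89 to 8.20 units in B6_B1a and 5.25 to 5.92 units in B6_Bs.

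Of 4 haematopoietic progenitor genes on the array, 2 were tested and 1, Meis1, passed, lower in Sle2c1_B1a (0.85 ± 0.57 units) than in Sle2c1_Bs (2.08 ± 0.30 units; SD, n = 4; limma adjusted p = 0.0252).

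Basophils share histamine, Cpa3 and the IgE receptor with mast cells. Of 3 basophil genes on the array, 2 were tested and 0 differed between B1a and Bs in either strain by limma (0 at an unadjusted p under 0.05). Mcpt8, the basophil granule protease, averaged 0.57 ± 0.14 units in Sle2c1_B1a and 0.70 ± 0.18 units in Sle2c1_Bs (SD, n = 4; limma adjusted p = 0.622). In B6 it averaged 0.50 ± 0.02 units in B1a and 0.80 ± 0.50 units in Bs (SD, n = 4; limma adjusted p = 0.294).

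The labelled cell types were read on their own markers. Of 7 B1a cell genes tested, 2 were higher and 1 lower in Sle2c1_B1a than in Sle2c1_Bs, and 4 were higher and 1 lower in B6_B1a than in B6_Bs. The 1 that was lower in both was S1pr4, a sphingosine phosphate receptor gene. Il10, which B1a cells are known to express, averaged 2.65 ± 0.10 units in Sle2c1_B1a and 2.81 ± 0.05 units in B6_B1a (SD, n = 4), and lay at the floor on all 8 Bs arrays. Cd5, the gene of the antigen used in the selection, averaged 0.75 ± 0.34 units in Sle2c1_B1a, where 2 of 4 arrays exceeded the floor, with every Sle2c1_Bs array at the floor, and did not pass (SD, n = 4; limma adjusted p = 0.257). In B6 it was above the floor on all 4 B1a arrays, at 1.08 ± 0.30 units, with every Bs array at the floor (SD, n = 4; limma adjusted p = 0.017). The splenic B cell gene Cr2 averaged 0.90 ± 0.39 units in Sle2c1_B1a and 3.44 ± 0.05 units in Sle2c1_Bs (SD, n = 4; limma adjusted p = 1.02e-08). Of 6 B cell genes, 5 were lower in Sle2c1_B1a and 4 in B6_B1a than in Bs, among them Blnk by -0.76 and -0.71 units.

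Other genes of the mast cell programme were read from lists of related function. Of 5 further granule protease genes on the array, 2 could be tested (Mcpt8 and Ctsg) and neither differed between B1a and Bs by limma (0 at an unadjusted p under 0.05). Of 8 genes of granule storage and mediator synthesis tested, 0 were higher and 1 lower in Sle2c1_B1a, and 1 was higher and 0 lower in B6_B1a. The 1 that rose was Alox5, which makes leukotriene precursors and is also expressed by macrophages and B cells. It averaged 1.19 ± 0.06 units in B6_B1a and 0.54 ± 0.09 units in B6_Bs (SD, n = 4; limma adjusted p = 0.00208). Alox5 did not pass against Bs in Sle2c1 (limma adjusted p = 0.311). In Sle2c1_B1a it averaged 0.68 ± 0.35 units, lower than in B6_B1a (SD, n = 4; limma adjusted p = 0.0373). The 1 that fell was Rab27b, a GTPase of granule exocytosis, at 0.77 ± 0.35 units in Sle2c1_B1a and 1.70 ± 0.27 units in Sle2c1_Bs (SD, n = 4; limma adjusted p = 0.0316). Tph1, the serotonin synthesis enzyme, averaged 1.43 ± 0.21 units in B6_B1a and 0.94 ± 0.35 units in B6_Bs and did not pass (SD, n = 4; limma adjusted p = 0.0963).

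Most genes of IgE receptor signalling are shared with the B cell receptor pathway. Of 10 tested, 1 was higher and 5 lower in Sle2c1_B1a, and 1 was higher and 3 lower in B6_B1a. Syk, the kinase that both receptors recruit, was the 1 that rose, by 0.29 and 0.42 units. Fyn had the smallest adjusted p of the list and was lower by -0.375 units in Sle2c1 and -0.475 units in B6 (limma adjusted p = 0.000536 and 8.91e-05). Btk was lower by -0.24 and -0.21 units (limma adjusted p = 0.00344 and 0.0111). Gab2, an adaptor downstream of the receptor, averaged 0.65 ± 0.32 units in Sle2c1_B1a and 2.13 ± 0.23 units in Sle2c1_Bs (SD, n = 4; limma adjusted p = 0.00404), and was lower in B6 too. Of 10 genes of Kit and growth factor signalling, 2 were higher and 1 lower in Sle2c1_B1a, and 3 were higher and 2 lower in B6_B1a. Csf2rb, the receptor chain shared by IL-3 and GM-CSF, was higher by 0.88 and 0.79 units in Sle2c1 and B6 (limma adjusted p = 6.05e-07 and 2.23e-06). Sos1 was higher by 0.42 and 0.47 units (limma adjusted p = 2.82e-05 and 1.32e-05). Pik3r1 was lower by -0.42 and -0.26 units (limma adjusted p = 0.000884 and 0.026). Kitl was lower in B6 by -0.73 units (limma adjusted p = 0.0346) and did not pass in Sle2c1 (limma adjusted p = 0.235).

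Of 7 other transcription factor genes of the mast cell lineage, 1 was higher and 1 lower in Sle2c1_B1a, and 1 was higher and 2 lower in B6_B1a. Zfpm1, a cofactor of GATA factors, averaged 1.64 ± 0.42 units in Sle2c1_B1a and 0.64 ± 0.29 units in Sle2c1_Bs (SD, n = 4; limma adjusted p = 0.00339), and 1.70 ± 0.06 units in B6_B1a and 0.84 ± 0.39 units in B6_Bs (SD, n = 4; limma adjusted p = 0.0114). Lmo2, a partner of Tal1 in haematopoietic complexes, was lower by -0.94 and -0.84 units (limma adjusted p = 2.07e-07 and 7.83e-07). Gata1, which acts beside Gata2 in mast cells, was at the floor on every B6_B1a array and averaged 1.81 ± 0.46 units in B6_Bs (SD, n = 4; limma adjusted p = 0.000598). Mitf, a factor that mast cells require, averaged 1.97 ± 0.17 units in Sle2c1_B1a and 1.98 ± 0.18 units in Sle2c1_Bs (SD, n = 4; limma adjusted p = 0.979).

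Of 8 other surface receptor genes tested, 2 were higher and 0 lower in Sle2c1_B1a, and 1 was higher and 1 lower in B6_B1a. Itgb7, the integrin beta 7 chain of mast cell progenitors that lymphocytes carry too, was higher by 0.57 and 0.49 units (limma adjusted p = 5.9e-05 and 0.000346). Mrgprb1, a Mas-related receptor gene of the family that mast cells express, was above the floor on 3 of 4 arrays of both B1a groups and on 0 of 8 Bs arrays, and did not pass (limma adjusted p = 0.16 in Sle2c1 and 0.173 in B6). Of 7 cytokine and chemokine genes that mast cells can secrete, 3 were higher in Sle2c1_B1a and 2 in B6_B1a, with 0 lower. Cxcl2, a neutrophil chemokine that macrophages also make, averaged 3.50 ± 0.10 units in Sle2c1_B1a and 0.80 ± 0.25 units in Sle2c1_Bs (SD, n = 4; limma adjusted p = 1.36e-08). Il6 was higher in B1a of both strains and differed between them, at 1.16 ± 0.31 units in Sle2c1_B1a and 2.27 ± 0.32 units in B6_B1a (SD, n = 4; limma adjusted p = 0.00207).

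The genes whose profile over the 16 arrays lay nearest to that of Cpa3 were ranked by the root mean square difference after each profile was centred on its own mean, as a description over arrays that share their groups. Of 15082 other named genes, Mcpt4 was the third nearest, at 0.231 units. The 8 nearest genes outside the list were Atp8a2, Cdkn2d, Sbno2, Ube2d1, Fbxw9, Agap2, Ankrd33b and Jun, at 0.208 to 0.24 units. Atp8a2, a phospholipid flippase, averaged 1.56 units in Sle2c1_B1a and lay at the floor in Sle2c1_Bs, and averaged 1.63 units in B6_B1a and 0.504 units in B6_Bs. Jun, a subunit of AP-1, averaged 3.50 units in Sle2c1_B1a and 2.26 units in Sle2c1_Bs, and 3.67 units in B6_B1a and 2.44 units in B6_Bs. Cma1 ranked 63, Tpsab1 194, Gata2 291, Fcer1a 314, Hdc 346 and Tpsb2 480, while Kit ranked 9251 and Ms4a2 10020.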

How the data were processed

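RNA of 16 samples was amplified and hybridised to Affymetrix mouse arrays, per the labels' protocols. The authors deposited 1 table of scores for 45101 probe sets; its unit is a score whose log base, centring and scaling are not given in the sources used here. It was tested as it stands, as a value on a log-like scale. No counts underlie it, so the number of arrays limits the precision. Genes were named from the platform annotation (34958 probe sets with 1 gene, 932 with several, 9211 with none; 99.42% of the first matched RefSeq).

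Values below 0.495 were raised to it. Tests covered the 35032 probe sets, controls left out, that exceeded the 40th percentile of the array on 4 or more of 16 arrays. Group means were fitted over all 16 arrays with limma 3.58.1 in R 4.3.3 (lmFit, eBayes). Tests were two-sided, p-values were adjusted by Benjamini-Hochberg over the probe sets tested, and the threshold was 0.05; the script was tested on simulated data. Exact permutation tests used all 70 arrangements of 4 against 4 arrays. A difference is called "at least" where every array of the lower group was at the floor and no array of the higher group was. With floored arrays in both groups, the difference depends on the floor and is no bound. The series' design text calls the 4 samples of a group biological replicates; no label says how many mice each holds.

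Deviations from the group means of same-numbered Bs samples of the strains correlated at 0.106 to 0.596. Bs replicates 3 and 4 were marked as matching their own number best, and replicates 1 and 2 were not. Replicate 1 correlated at 0.374 with its own number, beside a highest other value of 0.09. No label pairs the numbers, and the main fit holds no pairing, so blocks by number were run as alternatives only. Same-numbered B1a samples correlated at -0.004 to 0.146, and only replicate 4 was marked as matching its own number best (0.146, beside -0.037). The blocked fit changed no member's call in Bs. The rule allowed all 10 members and the 8 non-members nearest to Cpa3. From each other list it allowed up to 4 genes past the threshold, those of smallest adjusted p. Not every gene so allowed was described. Tph1, Mitf, Mrgprb1, Fcer1g, Ctsg, Mcpt8, Timd4, C1qb, C1qc, Marco and Adgre1 were named after their values were seen. The members and lists were chosen with earlier results of these data known. Alternatives were no floor, a floor at 1, other filters, normalizations, fits and left-out arrays.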

Additional observations from a re-analysis of the deposited data

Results flagged for a closer look

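By probe set 1428816_a_at, Gata2 lay at the floor of 0.495 units on B6_Bs 3, while the other B6_Bs arrays read 0.78, 0.83 and 0.80 units. The gap to the nearest of them took 0.851 of the group's range. The check for an outlying array was made in 25 groups of 4 arrays of the member probe sets with at least 3 arrays above the floor, and chance alone marks about 1 group in 20. The array is 1 of the 4 that stand apart over all probe sets, and the array's part in this value was not tested.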

How the results depend on the processing

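No result turned its direction past the threshold under any alternative run. Without a floor, 2 of the 10 genes passed for B1a against Bs in Sle2c1 and 3 in B6. In Sle2c1 the calls of Cpa3 (adjusted p = 0.0598), Tpsab1 (0.0627) and Cma1 (0.703) were lost, and in B6 those of Hdc (0.34), Tpsb2 (0.422), Cma1 (0.157), Fcer1a (0.128) and Tpsab1 (0.149). Values that the floor raises then enter the spread as deposited, down to -7.72 units. A floor at 1 unit ended Fcer1a in B6 (0.0629), and not counting floored groups toward the spread ended Tpsb2 there (0.0646). Fitting only the arrays compared ended Cma1 in Sle2c1 (0.0624). Leaving out 1 array gave 4 to 6 genes in Sle2c1, 8 in B6, 0 to 1 between strains in B1a, and 0 between strains in Bs and for the interaction. Between strains in B1a, 1 gene, Mcpt4, passed with median centring (-0.83 units, adjusted p = 0.0376) and with a replicate block set per cell type (-0.74 units, 0.0245). Same-numbered B1a samples correlated at 0.146 at most. The replicate block over all arrays left 5 and 8 genes for B1a against Bs, and the block left 0 genes in Bs.

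Over all probe sets, calls between strains in B1a numbered 1231, against 657 without a floor, 805 with a floor at 1, 733 with floored groups left out of the spread, 630 on the arrays compared and 767 with 1 probe set per gene. Median centring gave 633 higher and 851 lower calls there, against 657 higher and 574 lower. Between strains in Bs there were 46 calls, against 30 with a floor at 1, 28 with floored groups left out, 18 after quantile normalization, 14 with median centring and 30 with a trended, robust fit. The interaction had 162 calls, against 41 with the stricter filter on 8 arrays, 30 with floored groups left out, 64 with median centring, 19 with a trended, robust fit, 96 with 1 probe set per gene and 81 with the replicate block per cell type. Leaving out 1 array gave 6496 to 9973 calls in Sle2c1, 4766 to 8953 in B6, 833 to 1728 between strains in B1a, 29 to 84 in Bs and 84 to 292 for the interaction. The causes were not tested. The block within each cell type was not run for B1a against Bs, and fits on the arrays compared give no interaction. Mcpt4, Kit and Ms4a2 gave no value under the stricter filter. Signal near the floor limits Kit, Ms4a2, Tpsb2 and the splenic values, which are bounds there.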
